A study of Mus musculus with 2 samples.

Results

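The 9 genes described here are Mdm2, Trp53 and 7 genes that p53 is known to switch on, Ccng1, Zmat3, Bax, Bbc3, Phlda3, Trp53inp1 and Eda2r. They are named by symbol, in a choice made with earlier results of these data known, and each was found as 1 of the 32544 genes in both count tables. The study asked how the chromatin remodeler ARID1A acts while myeloid cells turn into osteoclasts, the cells that resorb bone. It also asked whether the E3 ligase MDM2 bears on the amount of the BRD9 protein, so the RNA level of Mdm2 in these cells is of interest. By bulk RNA-seq and qPCR the study reported Mdm2 RNA as significantly lower after loss of ARID1A. By qPCR it saw no apparent change of Brd9 RNA. Those assays differ from the single-cell counts used here. The data are 2 single-cell libraries (10x 3′ chemistry) of mouse bone marrow-derived monocytes (BMDMs), 1 labelled CONTROL and 1 of the genotype LysM-Cre;Arid1afl/fl. Both cultures received M-CSF at 50 ng/ml together with RANKL at 100 ng/ml, the cytokines that drive osteoclast formation, and the study's methods place the collection of the cells a day after RANKL was added. LysM-Cre is Cre recombinase driven from the Lyz2 locus, which is active in monocytes, macrophages and neutrophils, so deletion is limited to the myeloid cells that expressed Cre. Whether the control animal carried a floxed allele or Cre, the age of the animals and whether animals were pooled are not given in the labels.

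p53, the product of Trp53, is a transcription factor that accumulates under DNA damage and other stress and then switches on genes for cell cycle arrest, repair and apoptosis. Mdm2 is one of those targets and at the same time the main brake on the pathway, because MDM2 attaches ubiquitin to p53 and sends it to the proteasome. In the myeloid lineage the pathway is known for its part in cell cycle exit and in the survival of precursors.

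The sequences below show where the members hold the p53 response element, a pair of 10-base half-sites. They are given because p53 control of these genes runs through such elements. The search allowed at most 3 mismatches over the 20 letters and at most 1 base between the half-sites, and the core C and G of each half-site had to be kept. The element reads the same on both strands, so a single pass covered both. The windows read were the RefSeq promoter (250 bases before to 50 after a RefSeq start of the gene, 300 in all) and the first 500 bases of intron 1 of the GENCODE canonical transcript. RefSeq promoter sequences were present for 7 members, and each was placed by an exact and single match in GRCm39. Bbc3 has 3 such windows, and the Trp53 and Bbc3 pairs lie inside the GENCODE gene spans given further on, because the RefSeq starts used for them are downstream of the outermost GENCODE start. Capitals mark the half-sites.
Mdm2 intron 1, GRCm39 chr10:117546005-117546034, minus strand: gggctGGTCAAGTTGGGACACGTCCggcgt
Ccng1 promoter, GRCm39 chr11:40646284-40646313, minus strand: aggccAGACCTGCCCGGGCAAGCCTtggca
Ccng1 intron 1, GRCm39 chr11:40645758-40645787, minus strand: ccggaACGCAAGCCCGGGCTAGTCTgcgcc
Bax promoter, GRCm39 chr7:45116498-45116528, minus strand: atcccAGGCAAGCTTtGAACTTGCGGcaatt
Bbc3 promoter, GRCm39 chr7:16043406-16043435, plus strand: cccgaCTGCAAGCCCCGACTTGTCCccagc
Trp53 promoter, GRCm39 chr11:69471105-69471134, plus strand: cggaaGGACTTGCCCTTACTTGTTAtggcg
The Ccng1 pairs differed from the consensus at 1 letter each, the Bax pair at 2 letters, and the Mdm2, Bbc3 and Trp53 pairs at 3 letters. Over all genes, 3.27% of 27025 with a RefSeq promoter and 4.54% of 17344 protein-coding genes with an intron 1 of that length held such a pair. The RefSeq promoter of Mdm2 held none, and its intron 1 is the place from which the p53-driven Mdm2 transcript is known to start. No pair was found in the promoters of Phlda3 and Eda2r or in intron 1 of Trp53, Trp53inp1, Phlda3, Zmat3, Bbc3 and Eda2r, and intron 1 of Bax is shorter than the window. A match says only that these letters are there, and the libraries measured no binding.

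All members are protein-coding. Mdm2 lies on GRCm39 chr10:117524780-117546730 (minus strand), Trp53 on chr11:69469669-69482701 (plus), Ccng1 on chr11:40639377-40646148 (minus), Trp53inp1 on chr4:11156412-11175230 (plus) and Bax on chr7:45111015-45116325 (minus). Phlda3 lies on chr1:135693809-135697686 (plus), Zmat3 on chr3:32388941-32420163 (minus), Bbc3 on chr7:16042318-16052130 (plus) and Eda2r on chrX:96320270-96420847 (minus). Only 3′ ends were counted, so that Mdm2 transcripts from the upstream promoter and from the intron 1 promoter enter the same count. Trp53 overlaps Wrap53, Ccng1 overlaps Nudcd2, and Mdm2 overlaps Gm56970, all on the opposite strand, and Bax shares its strand with Gm45808. How reads in the shared stretches were assigned is not given in the sources used here.

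Cells were kept with at least 500 detected genes and at most 10% mitochondrial counts, which left 6269 control and 5663 mutant cells. Counts are unique molecular identifiers (UMIs, 1 per captured transcript), with a median of 23978 per control cell and 21734 per mutant cell. Of the barcodes, 8 occurred in both libraries, 0.124% of those of the control and 0.136% of those of the mutant library. Levels are UMIs of a gene summed over the cells of a library, per 1000000 UMIs of those cells (CPM). There is 1 library per genotype, so no test between genotypes was possible, and genotype, animal and library cannot be told apart. Each level carries an exact Poisson 95% interval and each ratio an exact conditional 95% interval, which cover counting error only. Arid1a itself had 51.9 CPM in the control and 20.4 CPM in the mutant library, a log2 ratio of -1.35, but a 3′ tag does not show which exons a transcript retains.

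Markers of the labelled lineage were present in both libraries. The 4 monocyte and macrophage genes Lgmn, Dab2, Csf1r and Adgre1 summed to 684 CPM in the control and 1709 CPM in the mutant library, and the 4 osteoclast genes Ctsk, Mmp9, Acp5 and Dcstamp to 232 and 97.8 CPM. Markers of other cells also differed between the libraries. All 4 neutrophil genes were detected and summed to 264 CPM in the control and 1981 CPM in the mutant library, the 4 class II genes to 28.7 and 116 CPM, and the 4 stromal genes to 4.42 and 11.4 CPM. The 3 B cell genes summed to 0.318 and 1.24 CPM, and of the 3 T cell genes 1 was detected, at 0.0306 and 0.0304 CPM. The ratios of all members without the cells that carry neutrophil, stromal or class II markers follow their levels.

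Mdm2 and Trp53 were both lower in the mutant library, by similar amounts and by less than 1.3-fold. Mdm2 stood at 161 CPM in the control (159 to 163) and at 134 CPM in the mutant library (132 to 136), from 26339 and 17579 UMIs. Its log2 ratio, mutant over control, was -0.27 (-0.30 to -0.24), and it was -0.26 without the marker cells of other types. Trp53 stood at 132 CPM in the control (130 to 133) and 105 CPM in the mutant library (103 to 107), a log2 ratio of -0.32 (-0.35 to -0.29). In both genes the intervals of the libraries lay apart, so counting error does not cover the gap, while the spread between animals is not known.

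The targets did not follow a single direction. Of the arrest genes, Ccng1, which encodes cyclin G1, a partner of the phosphatase that acts on MDM2, had 45.5 CPM in the control and 46.5 CPM in the mutant library, a log2 ratio of 0.03 (-0.02 to 0.08). Zmat3, which encodes an RNA-binding zinc finger protein, had 7.32 and 7.10 CPM and a log2 ratio of -0.04 (-0.17 to 0.08). For both, the interval of the ratio spans 0, so no difference over all cells was detectable at this depth. Ratios of Ccng1 by cell state are given further on.

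Among the genes of the apoptosis arm, Bax, the pore-forming protein of the mitochondrial outer membrane, had the highest level of the 9, with 517 CPM in the control (514 to 521) and 440 CPM in the mutant library (436 to 443). Its log2 ratio was -0.23 (-0.25 to -0.22), close to those of Mdm2 and Trp53. Bbc3, which encodes the BH3-only protein PUMA, had 9.75 and 9.61 CPM, a log2 ratio of -0.02 (-0.13 to 0.09). Phlda3, whose product competes with AKT for membrane lipids, fell furthest, from 13.4 CPM in the control (12.8 to 14.0) to 8.72 CPM in the mutant library (8.23 to 9.24). Its log2 ratio was -0.62 (-0.72 to -0.51). Trp53inp1, which encodes a stress protein active in autophagy and apoptosis, went the other way, from 2.26 CPM (2.03 to 2.50) to 4.33 CPM (3.98 to 4.70), with a log2 ratio of 0.94 (0.75 to 1.13). Eda2r, a receptor of the TNF receptor family, had 7 UMIs in each library, too few to give a direction (log2 ratio 0.32, -1.42 to 2.06). Without the marker cells of other types the log2 ratios were -0.32 for Trp53, 0.04 for Ccng1, -0.04 for Zmat3, -0.23 for Bax, -0.02 for Bbc3, -0.62 for Phlda3, 0.92 for Trp53inp1 and 0.08 for Eda2r.

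Of the 9 members, 1 (Phlda3) was at least 1.3-fold lower and 1 (Trp53inp1) at least 1.3-fold higher in the mutant library. The fold is close to a limit in the study's methods, which was given for genes overexpressed in a cell cluster, beside further conditions. Only 4 members reached a mean of 20 CPM (Mdm2, Trp53, Ccng1 and Bax), and none of these was past 1.3-fold in either direction. Among all 5219 genes at that level, 14.0% were at least 1.3-fold lower and 20.7% at least 1.3-fold higher. At a mean of at least 5 CPM, 7 members passed and 1 of them was lower, beside 13.2% lower and 22.2% higher of 8650 genes. These counts are near the shares over all genes and say nothing particular of the members. The median log2 ratio of the 4 members at 20 CPM was -0.25, and that of all genes at that level was 0.02.

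**Figure D1:**
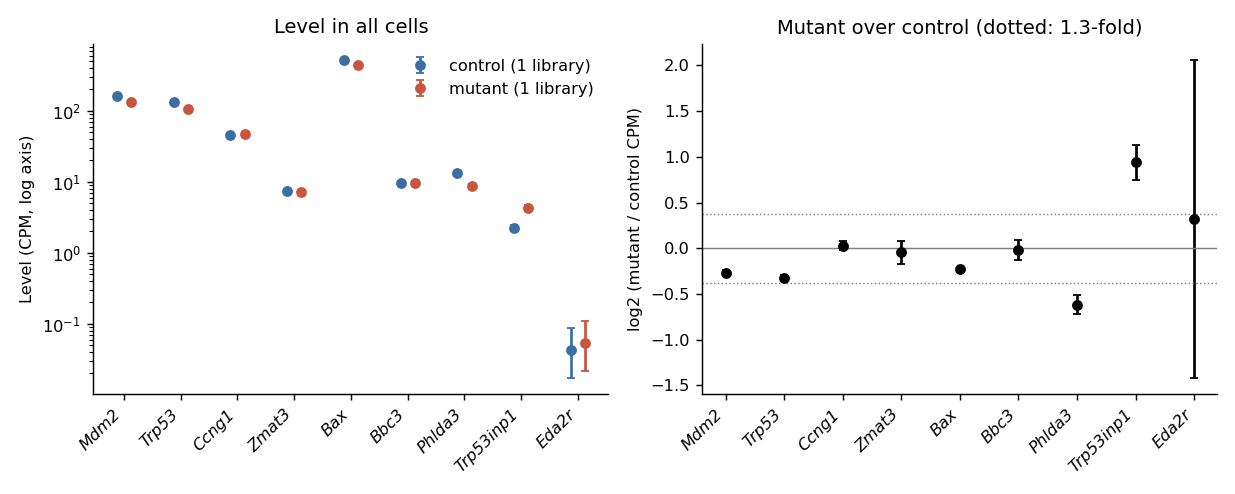
Left, level of each member in CPM on a log axis in the control and the mutant library (all cells kept, 1 library each), and right, log2 ratio of mutant over control, with 95% intervals for counting error (smaller than the point where not visible) and dotted lines at 1.3-fold. Mdm2 (-0.27), Trp53 (-0.32) and Bax (-0.23) lie together inside the dotted lines, Phlda3 (-0.62) lies below them and Trp53inp1 (0.94) above, and Eda2r rests on 7 UMIs a library.

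Cell states were set by genes that are not members. Each cell was thinned to 5000 UMIs, which leaves out 168 control and 351 mutant cells with fewer. The osteoclast gate took cells in which the 4 osteoclast genes named above gave 3 UMIs or more. The cycling gate asked for the same number from Top2a, Mki67, Cdk1 and Aurka together. The levels were then read from all UMIs of the gated cells. Marker cells of other types were set apart, which left 592 control and 186 mutant cells in the osteoclast gate. With those marker cells kept, the gate held 9.75% of control cells (595 of 6101, exact binomial interval 9.02 to 10.5) and 3.61% of mutant cells (192 of 5312, 3.13 to 4.15).

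Within the control library Mdm2 was lower in cells with osteoclast transcripts. It stood at 113 CPM in the osteoclast gate (108 to 117) and at 167 CPM outside it (165 to 169), a log2 ratio of -0.57 (-0.64 to -0.51). In the mutant library the same levels were 124 CPM (114 to 134) and 135 CPM (133 to 137), a log2 ratio of -0.13 (-0.25 to -0.01). The ratio of Mdm2 was below 0 in both libraries under every gate and cell set tried, at -0.23 to -0.80 in the control and at -0.09 to -0.37 in the mutant library. No intervals are given for these settings. In the mutant library the main interval nearly reaches 0 and several settings gave smaller ratios, so the direction there is weak. The range in the control has its extremes at a gate on unthinned counts and at a gate at 2000 UMIs. Within the control library, 17.5% of genes were at least 1.3-fold lower in the gate, and within the mutant library 6.11%, so the libraries also differed in how far genes in general moved with the gate.

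Between genotypes, Mdm2 was compared outside and inside the osteoclast gate, and the difference between these ratios was not tested. Outside the osteoclast gate Mdm2 was lower in the mutant library, by a log2 ratio of -0.31 (-0.34 to -0.28). Inside the gate it was 0.14 (-0.00 to 0.27), and 0.16 with the marker cells of other types kept. That second value is not a stable one, since it was 0.03 with another random draw, -0.01 with totals that leave out the mitochondrial and ribosomal protein genes, and -0.17 with the gate set on unthinned counts. No direction can be read for Mdm2 inside the gate. The mutant library held the smaller share of osteoclast-gate cells, where Mdm2 was low, and also the lower level of Mdm2 over all cells.

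Across the 4 states and the 2 libraries Mdm2 ranged from 110 to 170 CPM. The order ran from control cells of the cycling gate alone at 170 CPM (167 to 173) and of neither gate at 165 CPM (162 to 168) to mutant cells of the cycling gate alone at 141 CPM (138 to 145). Mutant cells of both gates followed at 135 CPM (118 to 153) and of neither gate at 132 CPM (129 to 134). The lowest were the osteoclast gate alone in the mutant library at 116 CPM (104 to 130), both gates in the control at 115 CPM (108 to 122) and the osteoclast gate alone in the control at 110 CPM (104 to 117). The only neighbours in this order whose intervals did not meet were control cells of neither gate and mutant cells of the cycling gate alone. These groups held 3319 (neither), 2158 (cycling), 335 (osteoclast) and 257 (both) control cells and 3318, 1656, 127 and 59 mutant cells.

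Trp53 was higher in cycling cells of both libraries, and Mdm2 was nearly level. Trp53 stood at 153 CPM in cycling-gate cells and 115 CPM in the others of the control library, a log2 ratio of 0.40 (0.36 to 0.44). In the mutant library it stood at 122 and 96.0 CPM, a log2 ratio of 0.35 (0.30 to 0.40). Of all genes, 7.99% in the control and 8.85% in the mutant cells were at least 1.3-fold higher in the cycling gate. The matching ratios of Mdm2 were 0.04 (0.00 to 0.07) and 0.11 (0.06 to 0.15), and with a gate on the replication genes Mcm3, Mcm5, Mcm6 and Hells they were 0.01 and -0.07. Bax was slightly lower in cycling cells of both libraries (-0.11 and -0.04). Ccng1 was lower in cycling cells of the control library (-0.15, -0.22 to -0.08), and its ratio in the mutant library was 0.04 (-0.04 to 0.12).

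In the osteoclast gate the other members did not all follow Mdm2. Phlda3 had 8.87 CPM inside and 13.8 CPM outside the gate in the control library, a log2 ratio of -0.64 (-0.88 to -0.41) that is as low as that of Mdm2. In the mutant library Phlda3 had 10.6 CPM inside and 8.53 CPM outside, with an interval that spans 0 (0.32, -0.13 to 0.73). Trp53 was higher inside the gate in the control, at 146 against 130 CPM (0.17, 0.11 to 0.23), and in the mutant library the ratio was 0.06 (-0.07 to 0.19). Trp53inp1 was higher inside the gate in the control, at 3.37 against 2.08 CPM (0.70, 0.28 to 1.10), from 62 UMIs in the gate. In the mutant library its ratio was 0.12 (-0.59 to 0.74), from 21 UMIs. Ccng1 was lower inside the gate in the mutant library (-0.23, -0.45 to -0.02), and in the control its interval spanned 0 (-0.09, -0.20 to 0.02). For Zmat3 and Bbc3 the interval spanned 0 in both libraries. Bax did not differ detectably between gated and other cells in either library (-0.01, -0.04 to 0.02 in the control and 0.01, -0.06 to 0.07 in the mutant library).

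The genotype difference of Trp53 held in every state, with log2 ratios from -0.25 (neither gate) to -0.39 (osteoclast gate alone). Bax was lower in the mutant library in 3 states (-0.26 in neither gate, -0.20 in the cycling gate alone, -0.32 in the osteoclast gate alone), and in cells of both gates its interval spanned 0 (-0.07, -0.18 to 0.03). Phlda3 was lower in the mutant library in cells of neither gate (-0.72, -0.86 to -0.58) and of the cycling gate alone (-0.67, -0.85 to -0.49). Inside the osteoclast gate it rested on 163 control and 49 mutant UMIs, and the ratio was 0.26 (-0.23 to 0.73). Trp53inp1 was higher in the mutant library in cells of neither gate (0.98, 0.71 to 1.26) and of the cycling gate alone (1.07, 0.74 to 1.40), and in the osteoclast gate it was 0.43 (-0.36 to 1.17). Bbc3 had a ratio of 0.19 (0.04 to 0.34) in cells of neither gate and of -0.25 (-0.43 to -0.06) among cycling-gate cells outside the osteoclast gate. Ccng1, level over all cells, was higher in the mutant library in cells of the cycling gate alone (0.14, 0.06 to 0.22). In cells of neither gate the interval of Ccng1 spanned 0 (-0.04, -0.11 to 0.02), as it did in the osteoclast gate (-0.11, -0.35 to 0.12).

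**Figure D2:**
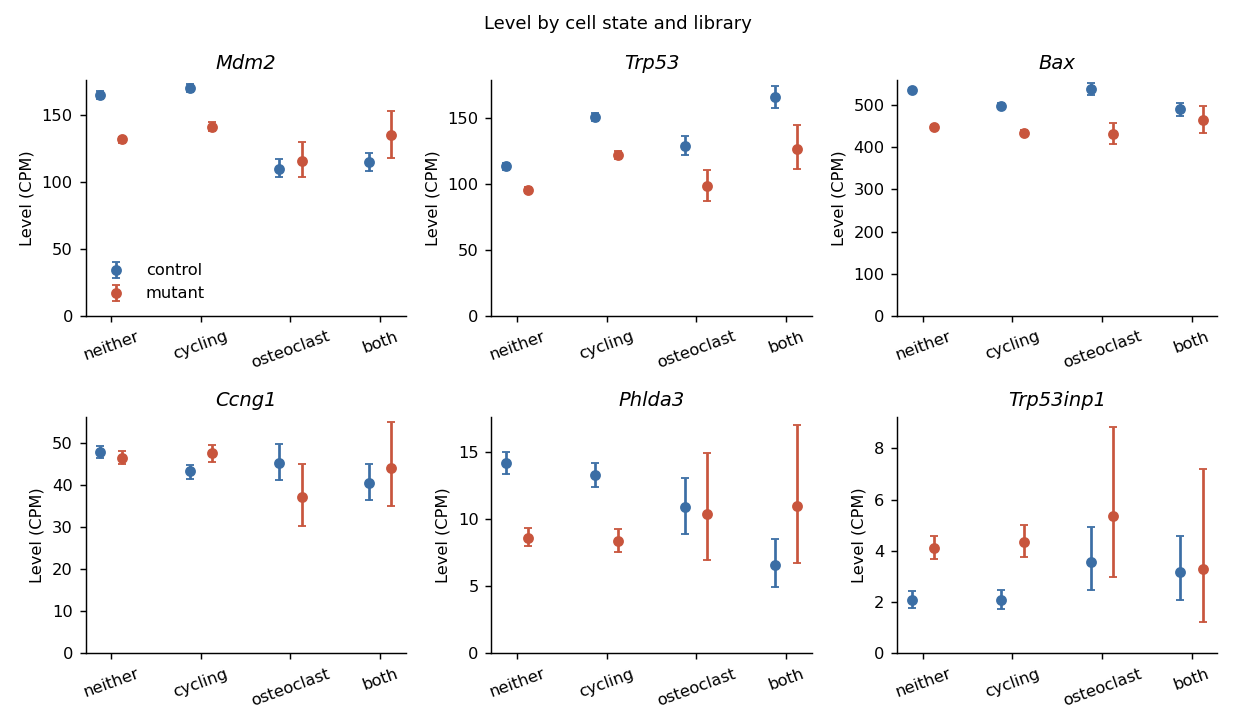
Level in CPM of 6 members in cells of neither gate, of the cycling gate alone, of the osteoclast gate alone and of both gates, for the control and the mutant library, with 95% Poisson intervals for counting error. Control Mdm2 drops from 165 CPM (neither) to 110 CPM (osteoclast), mutant Mdm2 from 132 to 116 CPM, and Trp53 is highest in control cells of both gates (166 CPM), followed by those of the cycling gate alone (151 CPM).

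Whether Mdm2 moves with the other targets was asked across cells. Each cell was thinned to 5000 UMIs, so that depth was shared by all cells, which left 6101 control and 5312 mutant cells. The Pearson correlation of Mdm2 with the summed 7 targets, most of whose UMIs are of Bax, was 0.013 in the control and 0.047 in the mutant cells. The counts are sparse (a mean of 0.802 Mdm2 UMIs per control cell and 0.655 per mutant cell), all cells of a library share 1 preparation, and the correlations of Mdm2 with 5218 other genes had 5% and 95% quantiles of -0.029 and 0.034 in the control and of -0.029 and 0.043 in the mutant library. The value of the mutant library lay just above its 95% quantile. Correlations of this size are a description and no finding.

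Taken by gene, Mdm2 had its highest member correlation with Phlda3 in the control (0.073) and with Ccng1 in the mutant library (0.074). These lay above 99.8% and 99.7% of the genes at 20 CPM. Neither repeated at that size in the other library (0.020 for Phlda3 in the mutant library, above 74.7%, and 0.011 for Ccng1 in the control, above 68.6%). The values for Trp53 were 0.026 and 0.031, for Bbc3 0.027 and 0.043, for Zmat3 0.004 and 0.026, for Trp53inp1 0.009 and 0.040, and for Bax -0.005 and 0.013. Eda2r, detected in 2 thinned cells of each library, cannot be read.

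By the lower of the 2 libraries' correlations, the 5 genes most like Mdm2 were Ccnd1 (0.082 and 0.105), Adam8 (0.081 and 0.086), Ifrd1 (0.079 and 0.103), Cdkn1a (0.079 and 0.094) and Ahnak (0.078 and 0.094), over 6101 control and 5312 mutant cells. Ccnd1 encodes cyclin D1 and Cdkn1a encodes p21, the cyclin-dependent kinase inhibitor and best known p53 target. The largest correlation of any gene with Mdm2 was 0.095 in the control and 0.105 in the mutant cells. Ccnd1, Adam8, Ifrd1 and Cdkn1a were higher in the mutant library, with log2 ratios of 0.61, 0.43, 0.36 and 0.36, while Mdm2 was lower, and Ahnak was at 0.01.

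**Figure D3:**
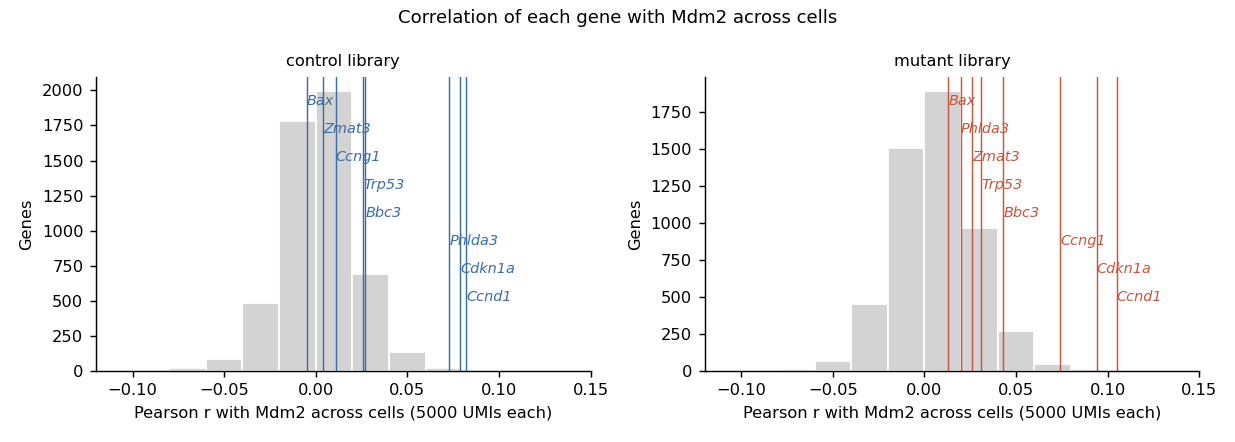
Number of genes at a mean of 20 CPM or more by their Pearson correlation with Mdm2 across cells thinned to 5000 UMIs, in the control (6101 cells) and the mutant library (5312 cells), with lines at named genes. Bax, Zmat3 and Trp53 stand within the bulk of the genes in both libraries, and Cdkn1a and Ccnd1 stand at the right edge, at 0.079 and 0.082 in the control and at 0.094 and 0.105 in the mutant library. Phlda3 stands near that edge in the control alone (0.073) and Ccng1 in the mutant library alone (0.074).

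Cells were also grouped by their own Mdm2 count. At 5000 UMIs, 3085 control cells had 0, 1831 had 1, 745 had 2 and 440 had 3 or more Mdm2 UMIs, and the mutant library held 3049, 1455, 567 and 241 such cells. Bax was level across the groups, at 514, 524, 513 and 507 CPM in the control and at 423, 437, 437 and 434 CPM in the mutant library. The summed 7 targets, which Bax dominates, went from 585 CPM at 0 to 595 CPM at 3 or more Mdm2 UMIs in the control (log2 ratio 0.03, -0.06 to 0.11) and from 494 to 550 CPM in the mutant library (0.15, 0.04 to 0.27).

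Phlda3 and Ccng1 varied with the Mdm2 count by amounts that changed with the draw and the depth. In the control, Phlda3 stood at 10.7, 15.7, 13.4 and 24.6 CPM in cells with 0, 1, 2 and 3 or more Mdm2 UMIs, a log2 ratio of 1.2 (0.73 to 1.65) between the ends, from 165 and 54 UMIs. With another random draw the ratio was 0.92, and at 10000 UMIs per cell it was 0.70. In the mutant library Phlda3 stood at 7.74, 7.42, 9.53 and 8.30 CPM (0.10, -1.0 to 1.03), and the ratio was 0.61 with another draw and 0.57 at 10000 UMIs. So a difference between the libraries in how Phlda3 varied with Mdm2 cannot be read from these counts.

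Ccng1 stood at 43.8, 42.3, 61.8 and 73.1 CPM in the mutant library, a log2 ratio of 0.74 (0.40 to 1.06), which was 0.56 with another draw and 0.27 at 10000 UMIs. In the control it stood at 42.9, 46.4, 51.6 and 38.7 CPM (-0.15, -0.49 to 0.18), and the ratio was 0.21 with another draw and 0.22 at 10000 UMIs, near that of the mutant library at this depth. Cdkn1a stood higher in cells with 3 or more than with 0 Mdm2 UMIs in both libraries, at 208 against 147 CPM in the control (0.50, 0.36 to 0.65) and at 302 against 203 CPM in the mutant library (0.58, 0.41 to 0.73). Bbc3 was at 13.6 against 8.10 CPM in the control (0.75, 0.13 to 1.34) and at 15.8 against 9.71 CPM in the mutant library (0.70, -0.07 to 1.39).

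Over all cells, the osteoclast genes were lower in cells with more Mdm2 UMIs, by more in the control than in the mutant library. In the control the 4 genes summed to 252, 172, 135 and 93.7 CPM in cells with 0, 1, 2 and 3 or more Mdm2 UMIs, a log2 ratio of -1.43 (-1.63 to -1.22) between the ends. Control cells of neither gate showed no such fall (0.14, -0.24 to 0.50), though by definition they hold under 3 thinned UMIs of these genes. The ratio was -1.57 (-1.91 to -1.24) in control cells of the cycling gate and -0.69 (-1.01 to -0.39) in those of the osteoclast gate. In the mutant library the 4 genes summed to 95.9, 93.4, 82.6 and 70.6 CPM (-0.44, -0.78 to -0.13), and in mutant cells of the cycling gate the ratio spanned 0 (-0.26, -0.80 to 0.24). Over all cells the ratio stayed between -1.45 and -1.39 in the control and between -0.44 and -0.22 in the mutant library with another draw, at 10000 UMIs, without doublets and without marker cells of other types. The osteoclast-gate cells hold 76.5% of these UMIs in the control and 42.7% in the mutant cells, so UMIs of a cell come together and the Poisson intervals are too narrow for this sum. The cycling genes differed less between the ends (0.11 in the control and 0.34 in the mutant cells).

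**Figure D4:**
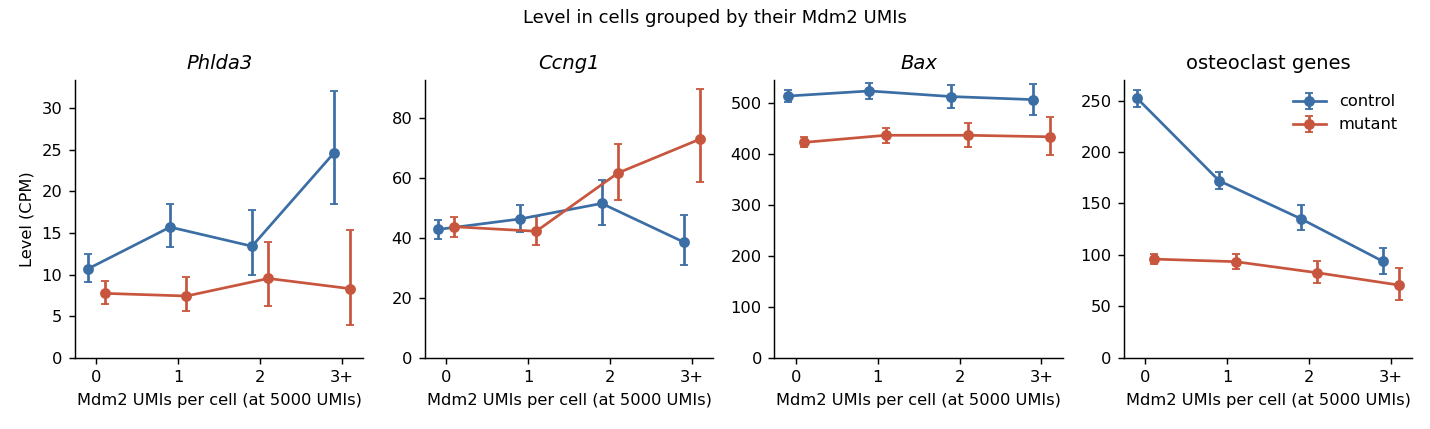
Level in CPM of Phlda3, Ccng1, Bax and the 4 osteoclast genes together in cells with 0, 1, 2 and 3 or more Mdm2 UMIs after thinning to 5000 UMIs, for the control and the mutant library, with 95% Poisson intervals. In this draw Bax is flat, Phlda3 is highest at 3 or more Mdm2 UMIs in the control (24.6 CPM), Ccng1 in the mutant library (73.1 CPM), and the osteoclast genes fall from 252 to 93.7 CPM in the control.

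Mdm2 was also read against the Arid1a transcripts of the same cell. Control cells with an Arid1a UMI at 5000 UMIs had 173 CPM of Mdm2 and those without had 157 CPM, a log2 ratio of 0.14 (0.04 to 0.23). Mutant cells with and without an Arid1a UMI had 143 and 130 CPM (0.15, -0.01 to 0.30). The ratio was thus nearly the same in the library where Arid1a was not targeted. Free RNA in the droplets can also supply such a UMI, and its part was not tested. Arid1a was itself higher in cycling cells of both libraries (0.43 and 0.35).

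Brd9, the gene of the protein that the study set beside MDM2, had 36.2 CPM in the control (35.3 to 37.1) and 39.2 CPM in the mutant library (38.1 to 40.3), a log2 ratio of 0.12 (0.06 to 0.17). The genotype ratio of Brd9 was 0.27 (0.19 to 0.34) in cycling-gate cells. Outside the cycling gate it was 0.03 (-0.05 to 0.10). The correlation of Brd9 with Mdm2 across cells was 0.017 in the control and 0.018 in the mutant cells. These are RNA levels, and protein was not measured here.

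The members stand in a wider network of 44 genes, listed from general knowledge in 4 groups. At a mean of at least 20 CPM, 15 of the 44 passed, of which 1 was at least 1.3-fold higher and 4 were at least 1.3-fold lower. Of all 5219 genes at that level, 20.7% were higher and 14.0% lower by that fold. The median log2 ratio of the 15 was -0.14, and that of all genes was 0.02. The lower ones, Rpl5, Rpl11, Rps27l and Aen, are taken by group below. Counts of so few genes are no support for a direction of the network. Among 14 genes that control p53, 8 passed and 2 were lower, and the range ran from Cop1, an E3 ligase of p53 (0.25), to the ribosomal protein gene Rpl5 (-0.41). Rpl11 was the other lower one (-0.40). As background, free RPL5 and RPL11 are known to bind MDM2 and hold it off p53. In the study's bulk RNA-seq, ribosome gene sets headed those lower in the mutant group. Whether Rpl5 and Rpl11 differed apart from other ribosomal protein genes was not tested. Among the apoptosis targets, 3 of 13 passed, from Ei24 (-0.14) to the nuclease gene Aen, the only lower one (-0.57). Its level was 27.7 CPM in the control and 18.7 CPM in the mutant cells, so Aen reached the limit only through the control library. Of the 8 metabolism and repair targets, Rps27l alone passed (-0.45), and as a close paralog of Rps27 its count is uncertain.

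Of the 9 arrest and growth control targets, which include the members Ccng1 and Zmat3, 3 passed at 20 CPM. Cdkn1a, with 181 and 232 CPM (0.36, 0.34 to 0.38), stood just inside 1.3-fold, and Ccng1 stayed at 0.03. Plk2, a polo-like kinase, had 17.3 and 31.0 CPM (0.84, 0.77 to 0.91), and it reached the limit only through the mutant library. With no limit on the level, 6 of the 9 were at least 1.3-fold higher in the mutant library, 0 were lower and the median was 1.06. No share over all genes was taken without a limit, so this count has no background. At a mean of at least 5 CPM, 5 of 8 were higher and 0 lower, beside 22.2% higher and 13.2% lower of all genes. Gadd45a, Sesn1 and Btg2 reached that limit only through the mutant library. Named after their values were seen, the higher ones beside Plk2 were Gadd45a (4.73 and 15.6 CPM, 1.72), Plk3 (5.26 and 14.4 CPM, 1.45), Sesn2 (2.95 and 6.79 CPM, 1.21), Sesn1 (4.45 and 9.52 CPM, 1.10) and Btg2 (3.90 and 8.15 CPM, 1.06). Zmat3 (-0.04) was the lowest of the list. As background, Gadd45a, Plk2, Plk3 and Btg2 are also known as early response genes to stress and growth factors, apart from p53.

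The other groups were mixed, and the genes named here were again picked after their values were seen. With no limit on the level, 2 of 13 apoptosis targets were higher, Trp53inp1 and Pmaip1, which encodes the BH3-only protein NOXA (3.34 and 9.62 CPM, 1.53), and 4 were lower (Phlda3, Aen, the death receptor gene Tnfrsf10b at -1.01, and Perp, which rested on 3 control and 1 mutant UMIs). Of the 14 genes that control p53, 1 was higher (Chek2, the checkpoint kinase, with 9.12 and 19.6 CPM, 1.11) and 2 were lower (Rpl5 and Rpl11). Of the 8 metabolism and repair targets, 3 were higher (Ddb2, 0.99, Dram1, 0.51, and Xpc, 0.40) and 1 was lower (Rps27l). Over the 44 genes 12 were higher and 7 lower, with a median of -0.03. As for every count without a limit, no share over all genes was taken beside it. At a mean of 5 CPM 36 of the 44 passed, of which 9 were higher and 5 lower, beside 22.2% higher and 13.2% lower of all genes. Gadd45a, Sesn1, Btg2 and Pmaip1 passed that limit only through the mutant library, so these counts are no support for a direction.

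**Figure D5:**
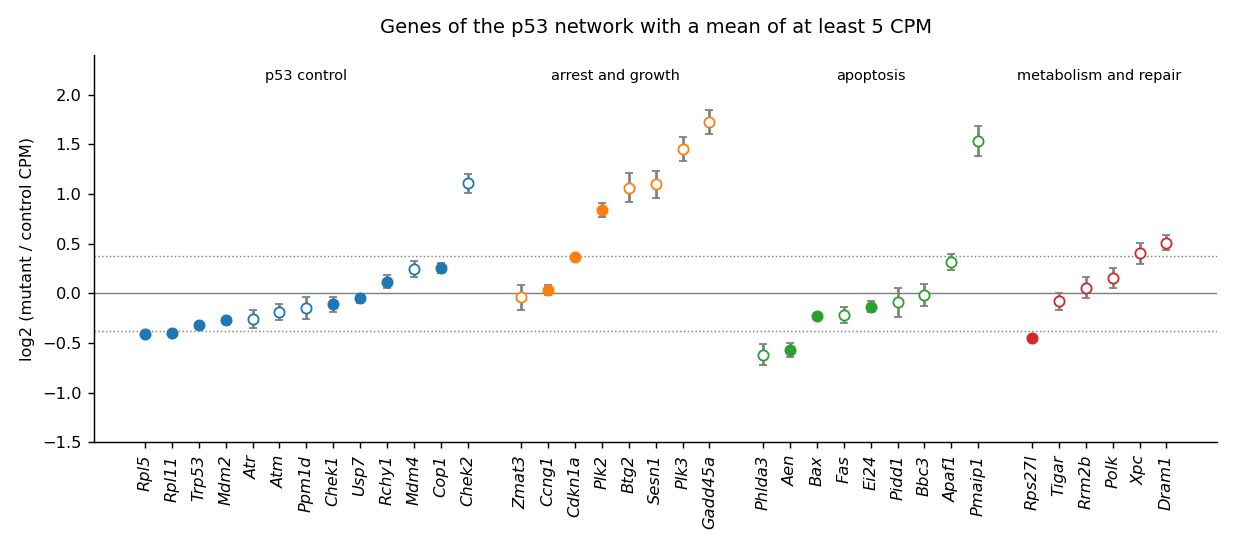
Log2 ratio of mutant over control for the 36 genes of the p53 network with a mean of at least 5 CPM, in 4 groups, with 95% intervals for counting error, filled points for a mean of at least 20 CPM and dotted lines at 1.3-fold. Mdm2 (-0.27), Trp53 (-0.32) and Bax (-0.23) lie below 0, and Gadd45a (1.72) lies highest, a gene that passes the limit only through the mutant library.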

How the data were processed

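The authors made the deposited UMI counts per gene and cell with Cell Ranger 6.1.0 on GRCm39, per the file headers and labels. They were used as raw counts, 1 matrix per library. The authors' strand setting and annotation release are not given in the sources used here. Of the 32544 gene identifiers, 31977 matched GENCODE M39, which gave positions. RefSeq promoter sequences carry the build GRCm38.p6 and were placed in GRCm39 by exact match.

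Cells with under 500 genes or over 10% mitochondrial UMIs were removed (186 control and 202 mutant barcodes). Sums, thinning, exact intervals and correlations were computed in Python 3.11.15 with numpy 2.4.6, scipy 1.17.1 and scikit-learn 1.9.0, and TMM factors with edgeR 4.0.16. Ratio, thinning and motif code was tested on simulated data. Doublets were kept, and a simulation-based caller that marked 5.16% of control and 4.69% of mutant barcodes served as an alternative. Marker cells held at least 1% of UMIs in neutrophil genes, or at least 0.1% in stromal or class II genes, with 3 of 4 markers detected, limits set after the distributions were seen.

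Named genes were all members, the 5 genes most correlated with Mdm2, the highest and lowest of each list at 20 CPM, Arid1a and Brd9. Other genes of the lists past 1.3-fold were named after their values were seen. Members and lists were chosen with earlier results of these data known.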

Additional observations from a re-analysis of the deposited data

How the results depend on the processing

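Lower Mdm2 in the mutant library kept its direction under all 8 other scalings and cell sets, between -0.22 and -0.38. It was -0.38 (just inside 1.3-fold) with mitochondrial and ribosomal protein genes left out of the totals, -0.33 with TMM factors and -0.22 with every cell weighing alike. Leaving out those genes moved the median of all genes to -0.09, and to -0.16 in the osteoclast gate. The count of members at least 1.3-fold lower was 2 (Trp53 and Phlda3) with either of the first 2 scalings, 3 at 1.2-fold and 0 at a mean of 20 CPM. The count of members higher was 2 with every cell weighing alike or at 1.2-fold (Eda2r, at 7 UMIs a library, was added), and 0 at a mean of 20 or 5 CPM.

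Mdm2 between genotypes inside the osteoclast gate (0.16 with marker cells kept) was -0.01 without those genes in the totals, -0.17 with a gate on unthinned counts, 0.29 with every cell weighing alike, 0.01 at 10000 UMIs and 0.02 with at least 5 UMIs, and the cause was not tested. The following alternatives for the gate within a library were chosen after seeing the data. In the control Mdm2 in over out of the gate was -0.80 at 2000 UMIs, -0.41 at 10000 UMIs, -0.23 on unthinned counts, -0.48 with at least 2 UMIs, -0.70 with at least 5 UMIs and -0.48 without mitochondrial and ribosomal protein genes. In the mutant library it was -0.25 with another draw, -0.31 at 2000 UMIs and -0.37 with at least 5 UMIs. The cycling ratio of Mdm2 in the mutant library was -0.07 with the replication gate.

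The correlation with the summed targets in the mutant library was 0.014 at 2000 UMIs. Between cells with 3 or more and 0 Mdm2 UMIs, alternatives also chosen after seeing the data, Phlda3 in the control was at 0.70 and in the mutant library at 0.57 with 10000 UMIs, Ccng1 in the control at 0.21 with another draw and 0.22 with 10000 UMIs, and Ccng1 in the mutant library at 0.27 with 10000 UMIs.

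Medians of the wider lists moved with the minimum level and the scaling. With a mean of 5 CPM they were -0.15 (p53 control), 0.95 (arrest and growth), -0.14 (apoptosis), 0.10 (metabolism and repair, of the opposite sign to -0.45 at 20 CPM, where Rps27l alone passed) and -0.03 (all). Without mitochondrial and ribosomal protein genes in the totals they were -0.30, 0.25, -0.34, -0.55 and -0.25.

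No paired analysis was possible because each genotype has 1 library. Depth limits Eda2r in all states, and the other members below 20 CPM in the osteoclast gate.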

Other observations

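The few cells that carried markers of other types differed from the monocytic cells in some members. In the 3 stromal marker cells of each library Phlda3 stood at 201 CPM in the control (126 to 304) and 192 CPM in the mutant library (128 to 278), from 22 and 28 UMIs, against 13.4 and 8.72 CPM over all cells. Ccng1 had 103 CPM (57.6 to 170) in those of the mutant library. In the 18 control and 83 mutant neutrophil marker cells Mdm2 stood at 66.1 CPM (33.0 to 118) and 73.6 CPM (58.3 to 91.7), below both library levels, and Bax at 108 and 195 CPM. Trp53inp1 stood at 18.0 CPM (3.72 to 52.7) and 14.0 CPM (7.82 to 23.0) there, and these cells held 3 of its 369 control and 15 of its 569 mutant UMIs. Without all marker cells the log2 ratio of Trp53inp1 was 0.92. In the 84 class II marker cells of the mutant library Mdm2 stood at 75.8 CPM (62.5 to 91.0), and in the 13 of the control at 182 CPM (136 to 239).

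Mdm2 counts were spread more widely between cells than those of most genes. At 5000 UMIs per cell its variance was 1.40 times its mean in the control and 1.45 times in the mutant cells, above 92.6% and 91.1% of genes at 20 CPM or more. Trp53 stood at 1.05 in both libraries, and Cdkn1a at 2.24 and 2.98. Cdkn1a, like Mdm2, was lower inside the osteoclast gate, at 73.1 against 195 CPM in the control (-1.42, -1.5 to -1.34) and at 173 against 235 CPM in the mutant library (-0.45, -0.55 to -0.34). Between genotypes it was higher in the mutant library both inside the gate (1.24, 1.11 to 1.37) and outside it (0.27, 0.25 to 0.29). Brd9 was higher in cycling cells, by 0.35 in the control and 0.59 in the mutant cells.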
